A study of Mus musculus with 4 samples.

Results

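Oligodendrocytes wrap axons of the central nervous system in myelin, and they arise from precursor cells that persist in the adult hypothalamus. The transcription factors Olig1, Olig2 and Sox10 set up and maintain the lineage. Pdgfra, the receptor that drives precursor proliferation, and Cspg4, the NG2 proteoglycan, mark the precursor surface, while Mbp, Mog, Mag and Cldn11 encode proteins of compact myelin, of its outer and inner surfaces and of its tight junctions. These 9 genes were taken from the 21887 protein-coding genes of the reference by name, as known genes of the lineage. At them, every open chromatin peak that overlapped the gene body or 50 kb to either side was collected. Overlapping peaks (1 bp or more) were joined across libraries, which gave 65 regions of 67299 in the whole series. Coordinates are those of mm10, the build of the files.

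The series, which concerns regulators of Mc4r, applied ATAC-seq (adapters are placed by a transposase wherever DNA is open) to nuclei of the hypothalamic paraventricular nucleus (PVH). One group received AAV-Cre, an adeno-associated virus carrying the recombinase that excises DNA between loxP sites (2 libraries), and the other received AAV-GFP (2 libraries). Otp encodes a homeodomain factor of PVH neurons. All carried the genotype Otp fl/fl; Ai14, that is, loxP-flanked Otp alleles and a recombination reporter, were injected as adults, were 12 weeks old and were dissected 4 weeks after the injection. The labels name no sort of infected nuclei, no promoter in the virus and no number of animals in a library, so the values are read as those of all nuclei of the dissected tissue, and the spread between libraries may be technical. The lists held 23384 and 26612 peaks in AAV-Cre replicates 1 and 2, against 57682 and 34100 in AAV-GFP replicates 1 and 2. Sequencing depth is unknown. Of PVH neuron genes, Pou3f2 and Arnt2 had a promoter peak in all 4 libraries while Avp, Oxt, Trh and Sst had none in any. Of the other genes of that list, Crh had a promoter peak in AAV-Cre replicate 2 (fold enrichment 4.42) and in AAV-GFP replicate 1 (10.3), and Sim1 had one in AAV-GFP replicate 1 (4.73). The Otp promoter had no peak in AAV-Cre replicate 1 and a fold enrichment of 5.52 in AAV-Cre replicate 2, against 3.73 and 4.22 in the AAV-GFP libraries. A peak there does not test the deletion, since the position of the loxP sites is not given.

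Of the 65 regions, 4 lay at a promoter of the 9 genes, 16 in the rest of their gene bodies, 11 at an end of another gene and 34 elsewhere. At these regions there were 17 and 23 peaks in AAV-Cre replicates 1 and 2, against 54 and 37 in AAV-GFP replicates 1 and 2. As a share of its list this was 0.0727% (95% Wilson interval 0.0454 to 0.116) and 0.0864% (0.0576 to 0.130) in the AAV-Cre libraries, against 0.0936% (0.0718 to 0.122) and 0.109% (0.0787 to 0.150) in the AAV-GFP libraries. These intervals cover counting error only and overlap one another. Fold enrichment, the authors' ratio of signal to background at a peak summit, had medians of 5.18 and 4.97 at these peaks in the AAV-Cre libraries, against 5.47 and 5.30 in the AAV-GFP libraries. Each was below the median of its whole list (5.72 and 5.77 in the AAV-Cre libraries, against 5.59 and 5.85 in the AAV-GFP libraries).

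**Figure D1:**
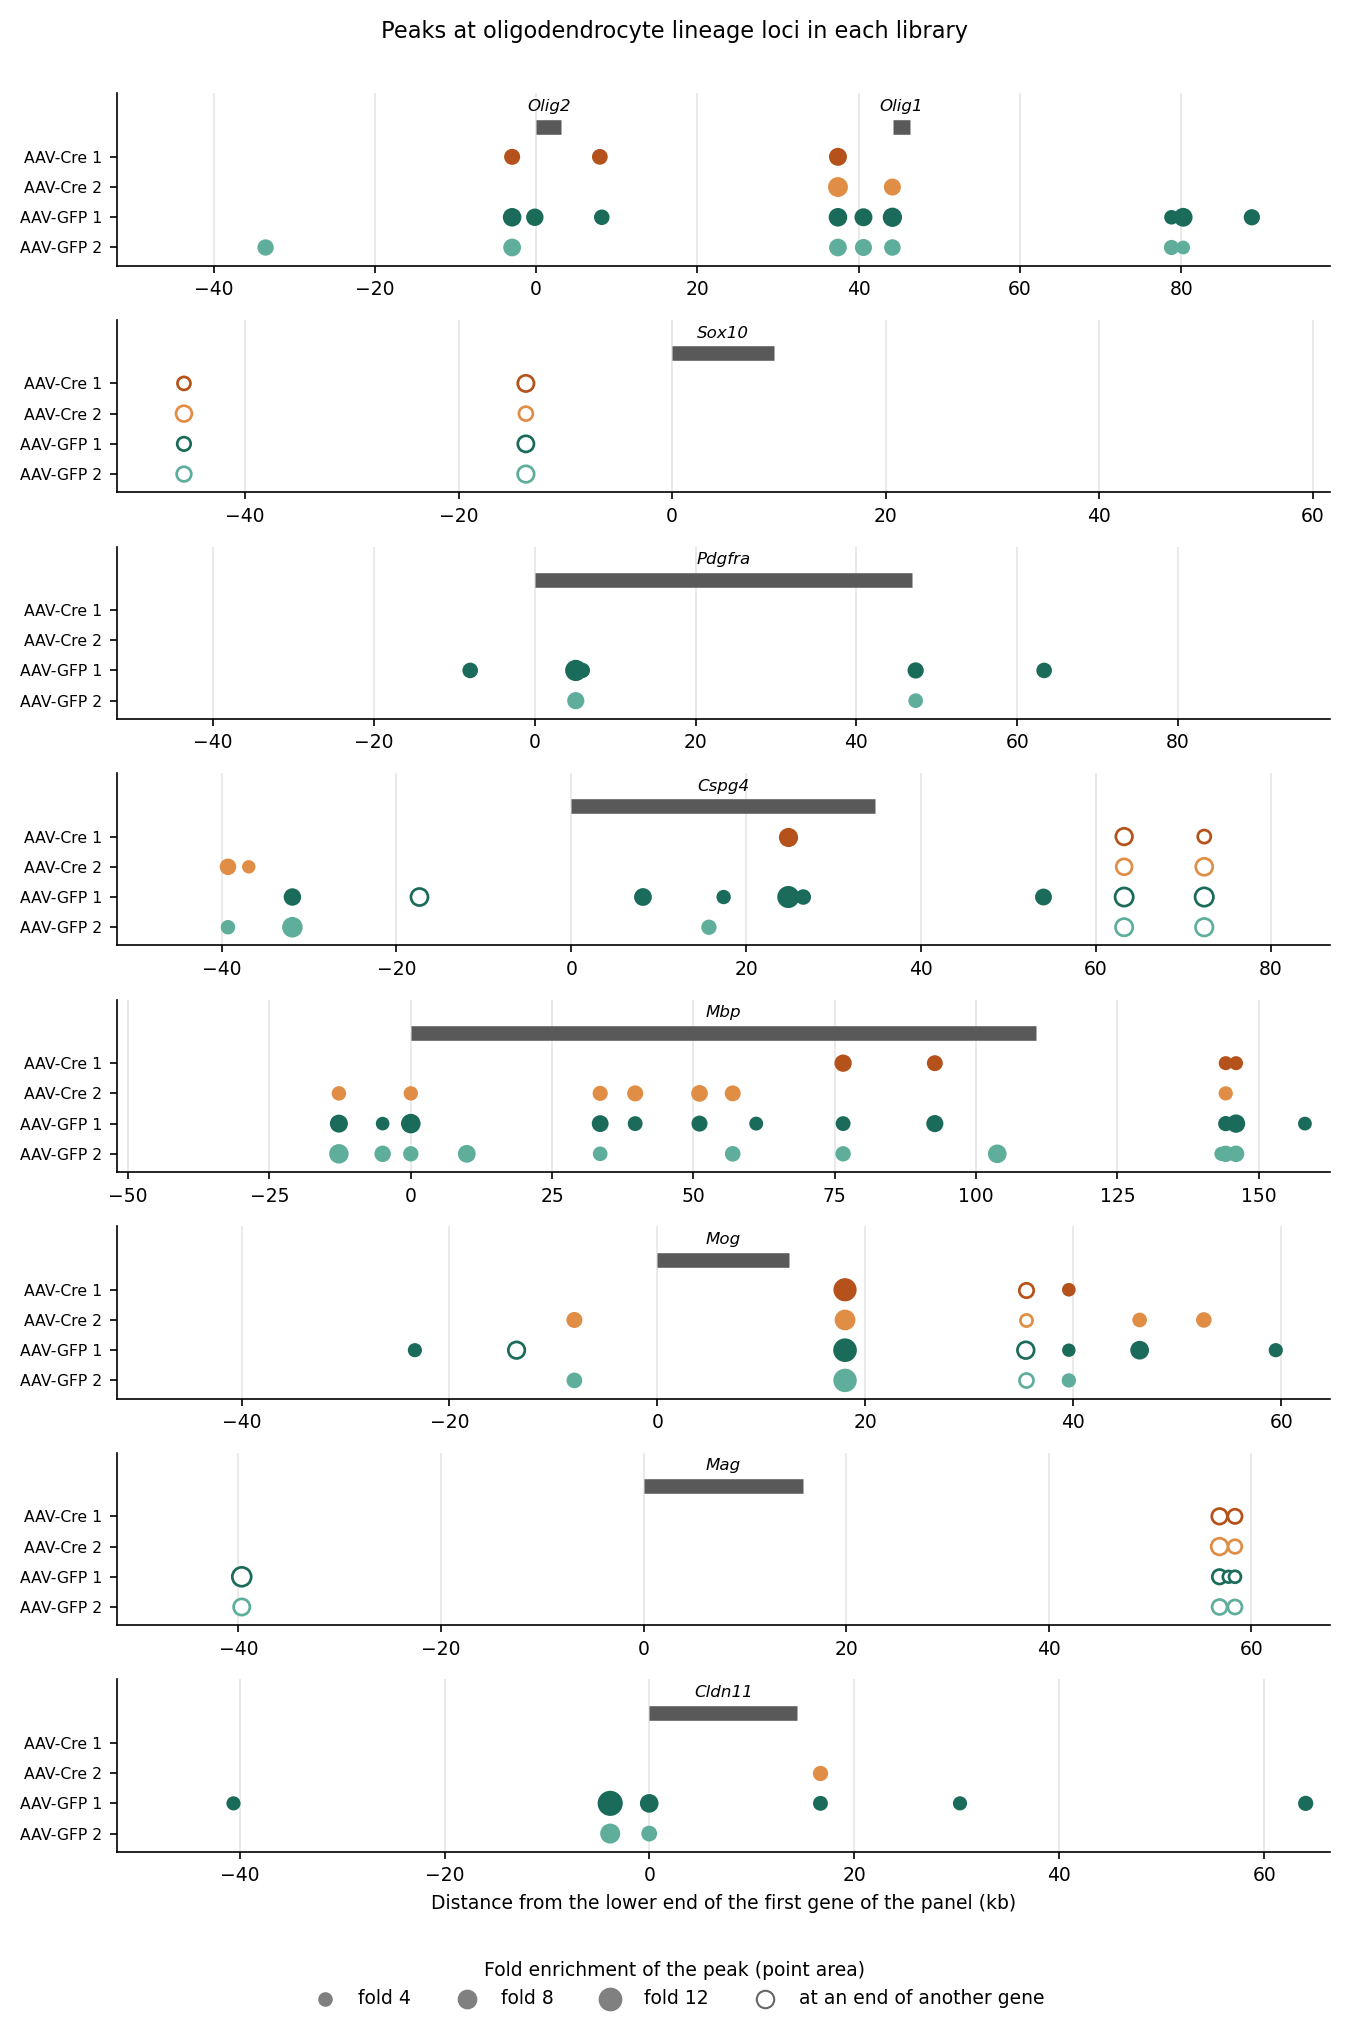
Peaks at the 9 genes in the 4 libraries, with distance from the lower end of the first gene of each panel in kb on the horizontal axis, gene bodies as grey bars and point area in proportion to fold enrichment. Open circles lie at an end of a neighbouring gene. Cldn11 and Pdgfra have the fewest peaks in the AAV-Cre rows (1 and 0), and at Sox10 and Mag every circle is open.

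A promoter peak in all 4 libraries was found at 0 of the 9 genes, against 42.9% of all protein-coding genes. The 9 genes were picked by name, and whether their share differs from that of all genes was not tested. A promoter was taken as 1 kb to each side of a RefSeq start site. For Mbp, Olig1 and Sox10, which had no start site in the table used, both gene ends were read instead. The Mbp gene spans 110547 bp, so a start site inside it was not read as a promoter. Promoter peaks were present at 0 and 2 of the 9 genes in AAV-Cre replicates 1 and 2, against 4 and 3 in AAV-GFP replicates 1 and 2. The AAV-Cre lists were shorter, and the share of all promoters with a peak in each library is not given here. These counts are therefore not read as a difference particular to the 9 genes. Cldn11 was the 1 gene whose promoter was open in the AAV-GFP libraries alone, a pattern of 3.05% of all promoters. No member had the converse pattern, which 0.064% of promoters had. With AAV-Cre replicate 1 left out, 2 genes, Olig1 and Mbp, had a promoter peak in every remaining library. For Mbp this was at the lower end of the long gene. No peak lay at the promoters of Sox10, Mog, Mag, Pdgfra or Cspg4, as for 40.9% of protein-coding genes.

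The promoters of Cldn11 and Olig2 are shown because they are the 2 members with both a promoter peak and a printable sequence. Both are RefSeq sequences on GRCm38.p6, plus strand, from 250 bases before to 50 bases after the start, at chr3:31149670-31149969 and chr16:91225300-91225599. Capitals mark matches, on either strand, to the motifs named after the sequences, which do not overlap one another here.
Cldn11: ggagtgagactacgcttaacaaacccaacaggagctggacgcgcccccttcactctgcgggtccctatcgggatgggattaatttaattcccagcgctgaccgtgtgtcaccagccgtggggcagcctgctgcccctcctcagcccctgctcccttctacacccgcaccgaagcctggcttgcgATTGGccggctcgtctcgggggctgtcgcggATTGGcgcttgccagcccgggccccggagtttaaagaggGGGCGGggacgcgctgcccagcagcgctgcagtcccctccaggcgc
Olig2: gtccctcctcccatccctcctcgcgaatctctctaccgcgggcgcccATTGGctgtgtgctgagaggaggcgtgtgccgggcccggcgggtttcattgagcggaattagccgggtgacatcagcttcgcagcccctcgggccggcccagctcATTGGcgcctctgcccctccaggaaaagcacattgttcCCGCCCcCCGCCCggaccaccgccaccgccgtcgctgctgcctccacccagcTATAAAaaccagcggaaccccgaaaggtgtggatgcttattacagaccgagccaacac
The Cldn11 peak covers bases 149 to 300 of this window and the Olig2 peak bases 1 to 178. CCAAT, the NF-Y box, occurs at 2 positions in each window, both times as its reverse complement ATTGG, and is present in 37.4% of the 32851 promoters in the table. GGGCGG, the GC box, occurs at 1 position in Cldn11 and 2 in Olig2, and in 35.7% of promoters. TATAAA occurs once, in Olig2, and in 13.6% of promoters. The SOX core ACAAAG is in neither window and in 18.7% of promoters. The E-box CAGCTG is also in neither and in 16.3% of promoters, and the homeodomain core TAATTA, in neither, is in 5.29%.

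The windows of Cldn11 and Olig2 were rich in CpG. Cldn11 held 24 and Olig2 25 CpG dinucleotides in the 300 bases, against 17 in Cspg4, 5 in Pdgfra, 3 in Mog and 3 to 6 in the 3 start windows of Mag, none of which had a peak. Over all promoters the median was 22 where the gene had a promoter peak in all 4 libraries (9974 promoters), 15.5 where the peak was in the AAV-GFP libraries alone (670), and 3 where there was none (7806). CpG was counted after the peak patterns were known, and this is a description across promoters.

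Olig1 and Olig2, basic helix-loop-helix factors that lie 41.1 kb apart, shared 7 regions between their windows. Counted once, the Olig locus had 11 regions, with 3 and 2 in AAV-Cre replicates 1 and 2, against 9 and 7 in AAV-GFP replicates 1 and 2. The AAV-Cre lists were also shorter as a whole (23384 and 26612 peaks, against 57682 and 34100). The part of list length in the counts at this locus was not tested. The lower end of Olig1, at chr16:91269547-91269879, had a fold enrichment of 5.73 in AAV-Cre replicate 2 and no peak in AAV-Cre replicate 1, against 7.58 and 5.35 in the AAV-GFP libraries. The Olig2 promoter peak, at chr16:91225283-91225477 and 73 bp upstream of the start, was present in AAV-GFP replicate 1 alone (6.02), with no peak in any other library. Thus both promoters lacked a peak in AAV-Cre replicate 1, and AAV-GFP replicate 1, the longest list, had both. In the authors' deposited group lists the Olig1 end had no peak in the AAV-Cre list, against a fold of 7.80 in the AAV-GFP list, and the Olig2 promoter had none in either. At the 9 loci a region had a peak in a group list only where both libraries of that group had one. The group lists therefore restate the pattern of the libraries here.

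Between the Olig genes, 1 region was open in all 4 libraries and its neighbour in the AAV-GFP libraries alone. The shared region, at chr16:91262782-91263148 and 6621 bp below Olig1, had a fold of 6.48 in AAV-Cre replicate 1 and 8.11 in AAV-Cre replicate 2, against 6.96 and 6.24 in the AAV-GFP libraries. The neighbour, at chr16:91265972-91266281 and 3488 bp below Olig1, had no peak in the AAV-Cre libraries, against folds of 6.46 and 5.74 in the AAV-GFP libraries. A region 2712 bp upstream of Olig2, at chr16:91222295-91222838, had a fold of 4.98 in AAV-Cre replicate 1 and no peak in AAV-Cre replicate 2, against 6.95 and 6.29 in the AAV-GFP libraries. It was thus missing from 1 library only. Past the upper end of Olig1, regions at 32160 bp (3.98 and 4.4) and 33677 bp (7.15 and 3.48) were open in the AAV-GFP libraries alone. The other 4 regions of the locus were each in a single library, 2 of them in AAV-GFP replicate 1, 1 in AAV-GFP replicate 2 and 1 in AAV-Cre replicate 1.

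Sox10, the SOX factor that activates myelin genes, had no peak in its gene body or at its ends. Its 2 regions, each present in all 4 libraries, lay at an end of Micall1 and at the shared ends of Polr2f and 1700088E04Rik, 45448 and 13412 bp below Sox10. The fold at Micall1 was 4.33 and 6.40 in the AAV-Cre libraries, against 4.67 and 5.48 in the AAV-GFP libraries. At Polr2f, which encodes an RNA polymerase subunit, it was 6.76 and 4.98 in the AAV-Cre libraries, against 6.68 and 6.99 in the AAV-GFP libraries. The libraries of the groups overlapped at both.

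At the precursor genes, Pdgfra had 0 peaks within 50 kb in both AAV-Cre libraries. Its 5 regions were all seen in AAV-GFP replicate 1, and 2 of them also in AAV-GFP replicate 2. The stronger lay inside the gene, 4042 bp downstream of the start, at chr5:75156293-75156540, with no peak in the AAV-Cre libraries, against folds of 9.42 and 5.85 in the AAV-GFP libraries. The other lay 337 bp past the upper end, at chr5:75198543-75198850, with folds of 5.13 and 4.04 in the AAV-GFP libraries alone. At the Pdgfra start itself no library had a peak. Lack of a peak in both AAV-Cre libraries was also common over the whole series. There, 34.9% of regions were called from AAV-GFP replicate 1 and no other list, and 11.5% from the AAV-GFP pair only. Whether the Pdgfra locus departs from these shares was not tested. Pdgfra also marks fibroblast-like cells of the vessel wall and meninges, and Cspg4 marks pericytes, so neither gene is particular to precursors. Of 9 endothelial and mural genes read as markers of the vessel wall, 9 had no promoter peak in any library, against 40.9% of all protein-coding genes. Of the 9 lineage genes, 5 also had none, and the loci of the vessel genes held 42 regions. The part of vessel cells in the peaks at Pdgfra and Cspg4 was not tested.

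Cspg4 had 12 regions, most of them in a single library. Of the 5 regions in its gene body, 3 were confined to AAV-GFP replicate 1 and 1 to AAV-GFP replicate 2. The remaining region, at chr9:56889828-56890034, had a fold of 7.48 in AAV-Cre replicate 1, against 10.2 in AAV-GFP replicate 1, with no peak in the second library of either group. A region 31642 bp below the gene, at chr9:56832927-56833462, had no peak in the AAV-Cre libraries, against folds of 6.04 and 8.74 in the AAV-GFP libraries. Both regions of the locus that were open in all 4 libraries lay at ends of neighbours, Snx33 and Imp3. At Snx33, a sorting nexin gene, the fold was 7.02 and 6.45 in the AAV-Cre libraries, against 8.44 and 7.63 in the AAV-GFP libraries, and at Imp3, a gene of ribosomal RNA processing, it was 4.38 and 7.36 in the AAV-Cre libraries, against 8.61 and 7.84 in the AAV-GFP libraries. By strength percentile, the rank by −log10 p among the 14634 regions shared by all 4 libraries with 100 as the strongest, the groups overlapped at Snx33, with 50.9 and 35.8 in the AAV-Cre libraries, against 37.3 and 38.9 in the AAV-GFP libraries.

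Among myelin genes, Cldn11, which encodes the claudin of myelin tight junctions, had the strongest region that was open in the AAV-GFP libraries alone. Its promoter region, at chr3:31149818-31149972, had no peak in the AAV-Cre libraries, against folds of 7.0 and 4.81 (−log10 q of 10.3 and 4.21) in the AAV-GFP libraries. A stronger region 3686 bp upstream of the start, at chr3:31145939-31146234, also had no peak in the AAV-Cre libraries, against folds of 13.6 and 8.23 (−log10 q of 30.1 and 11.7) in the AAV-GFP libraries. The value of 13.6 was the highest fold of any library at the 65 regions. The 1 AAV-Cre peak of the locus lay 2116 bp past the upper end, with a fold of 4.42 in AAV-Cre replicate 2, against 4.19 in AAV-GFP replicate 1. The 3 other regions were in AAV-GFP replicate 1 alone.

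Mbp, which encodes the major basic protein of compact myelin and whose long gene also contains the earlier golli exons, had 16 regions over its 110547 bp and flanks. At its lower end, chr18:82474805-82475390, the fold was 3.87 in AAV-Cre replicate 2 with no peak in AAV-Cre replicate 1, against 7.82 and 4.49 in the AAV-GFP libraries. Start sites inside the gene, after the golli exons, were not read as promoters and count here as gene body. Within the gene body 9 further regions were found in 1 to 3 libraries each, with folds between 3.58 and 7.01. Of these 9, 6 had a peak in at least 1 library of each group and 3 in an AAV-GFP library alone. None of the 9 had a peak in all 4 libraries. The share of all regions with a peak in both groups is not given here. A region 4828 bp below the gene, at chr18:82469967-82470263, had no peak in the AAV-Cre libraries, against folds of 3.43 and 5.30 in the AAV-GFP libraries. The 1 region of the locus present in all 4 libraries lay inside the neighbour Zfp236, a zinc-finger gene, 33174 bp past the upper end of Mbp. In the authors' deposited group lists the lower end of Mbp had no peak in the AAV-Cre list, against a fold of 6.47 in the AAV-GFP list. As at Olig1, this absence goes with the missing peak in AAV-Cre replicate 1 and is not further evidence.

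Mog, an immunoglobulin-family protein of the outer myelin surface, had no peak in its gene body or at its start. The strongest shared region of all 9 loci lay 5062 bp upstream of its start, at chr17:37028460-37029100, where the fold was 11.4 and 8.92 in the AAV-Cre libraries, against 11.9 and 11.7 in the AAV-GFP libraries. Its strength percentile was 87.0 and 71.8 in the AAV-Cre libraries, against 65.8 and 75.6 in the AAV-GFP libraries. The groups overlapped by this percentile, whereas by fold both AAV-Cre values were below both AAV-GFP values. The authors' deposited group lists gave it folds of 12.5 in the AAV-Cre list and 13.6 in the AAV-GFP list. The second shared region of the locus lay at an end of Gabbr1, a GABA-B receptor subunit gene, with AAV-Cre folds of 5.31 and 3.79, against AAV-GFP folds of 7.14 and 5.04.

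Mag, a sialic-acid-binding adhesion protein of the inner myelin surface, had no peak in its gene body or at its 3 start sites in any library. Its 4 regions all lay at ends of neighbours, 39508 to 42525 bp away. A region beside Ffar1, a fatty acid receptor gene, at chr7:30859356-30859667, had no peak in the AAV-Cre libraries, against folds of 9.13 and 6.76 in the AAV-GFP libraries. A region at Usf2, which encodes a ubiquitous helix-loop-helix factor, at chr7:30955798-30956287, had AAV-Cre folds of 6.20 and 7.11, against AAV-GFP folds of 5.37 and 5.73. The region between Lsr and Usf2 had AAV-Cre folds of 5.18 and 4.76, against AAV-GFP folds of 3.64 and 5.09, and the fourth was in AAV-GFP replicate 1 alone (3.46).

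Over the 65 regions, 10 (15.4%) were open in the AAV-GFP libraries alone (a peak in each of these and none in the others), against 11.5% of all merged regions. A further 10 (15.4%) were open in all 4, against 21.7%. A peak in both AAV-Cre libraries alone was seen at 0 of 65, against 1.18% of all regions. With 3 counts as the upper limit of a count of 0, and regions taken as independent, this allows up to 4.62%. The AAV-GFP-only share at the lineage genes was thus close to that of the whole series, and is not a result particular to them. More than 1 kb from any gene end or start site, 7 of 48 regions (14.6%) were open in the AAV-GFP libraries alone, against 13.1% of such regions in the series, 3 of 48 (6.25%) in all 4 libraries, against 11.3%, and 0 in the AAV-Cre libraries alone, against 1.46%. Within 1 kb of one, 3 of 17 regions were open in the AAV-GFP libraries alone, against 6.52%, 7 of 17 in all 4, against 53.4%, and 0 in the AAV-Cre libraries alone, against 0.342%. The single largest class at these loci was AAV-GFP replicate 1 alone, with 20 regions (30.8%), against 34.9% of all regions. With 2 libraries a group the smallest exact 2-sided p is 0.333, so no difference between the groups can pass a threshold of 0.05. The count of 10 was 17 without AAV-GFP replicate 1 and 30 without AAV-GFP replicate 2, and the count of 0 was 2 without AAV-Cre replicate 1 and 1 without AAV-Cre replicate 2. In tissue of mixed cells, fewer nuclei of a type and less open chromatin in each nucleus cannot be told apart. Regions open in all 4 libraries had a median width of 543 bp at these loci, those open in the AAV-GFP libraries alone 303.5 bp and the others 207 bp, beside 622, 300 and 198 bp for the same 3 classes over all regions.

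List length moved with these counts. When each list was reduced to its 23384 strongest peaks, the length of the shortest, 4 of the 10 regions kept both AAV-GFP peaks and remained AAV-GFP-only. At that length the loci held 40 regions, so these were 4 of 40, against 5.41% of all regions. A peak in the AAV-Cre libraries alone was found at 0 of 40, against 4.6% of all regions. These 4 were the upstream region of Cldn11, the intragenic region of Pdgfra, the region 3488 bp below Olig1 and that beside Ffar1. For the 6 others, the Cldn11 promoter among them, the reduction removed at least 1 AAV-GFP peak. Peaks of the 10 regions had a median rank percentile within their list of 64.9 in AAV-GFP replicate 1 and 42.5 in AAV-GFP replicate 2. All 10 had a peak in the authors' deposited AAV-GFP group list and 0 in the deposited AAV-Cre group list. At these loci a region had a peak in a group list only where both libraries of that group had one. These counts therefore restate the pattern by which the 10 were picked and add no support. The part of sequencing depth in these counts was not tested.

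**Figure D2:**
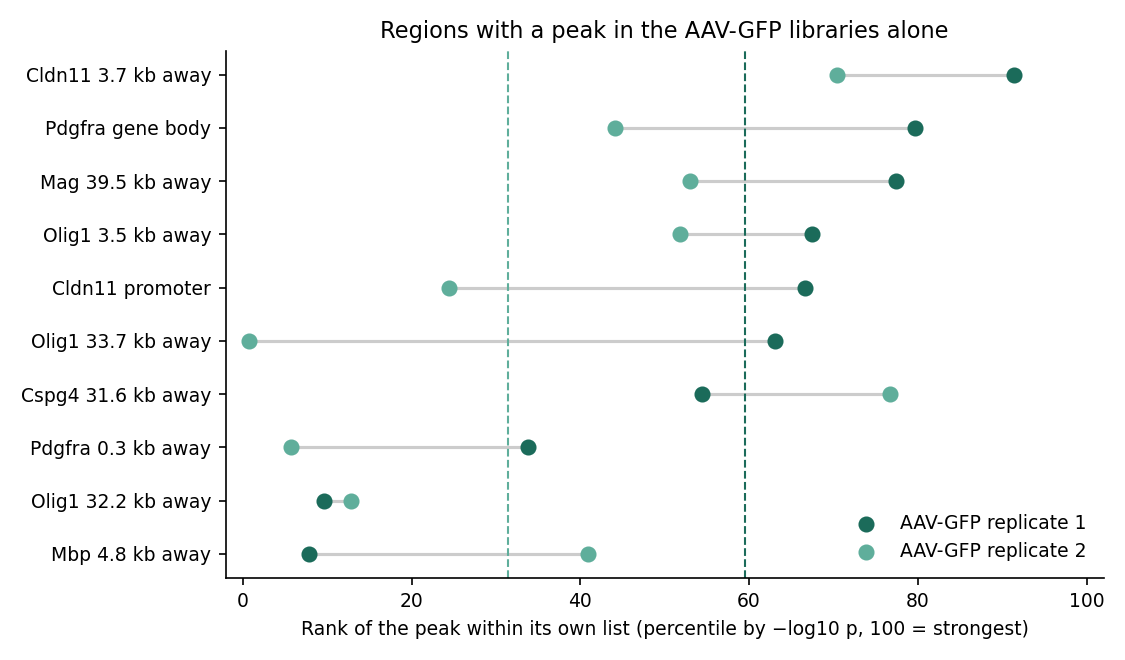
Rank of each peak within its own list (percentile by −log10 p, 100 the strongest) for the 10 regions with a peak in the AAV-GFP libraries alone, each named by the closest of the 9 genes. Dashed lines mark the percentile below which peaks drop out when lists are made equal in length, 59.5 for AAV-GFP replicate 1 (dark) and 31.4 for AAV-GFP replicate 2 (light), and 4 regions lie above both lines with both peaks.

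Of the 10 regions open in all 4 libraries, 7 lay at ends of neighbouring genes, close to the 60.9% of all shared regions that lay within 1 kb of a gene end or start site. The other 3 lay upstream of Mog, between Olig2 and Olig1, and in Zfp236. Both AAV-Cre percentiles exceeded both AAV-GFP percentiles at 2 of 10, against 19.8% of all shared regions, and the converse held at 1 of 10, against 19.7%. The 2 were the Usf2 region, at 56.9 and 65.5 in the AAV-Cre libraries, against 22.6 and 34.7 in the AAV-GFP libraries, and the region 6621 bp below Olig1, at 40.2 and 57.0 in the AAV-Cre libraries, against 16.4 and 21.2 in the AAV-GFP libraries. Their mean differences were 32.5 and 29.8 percentile points, where the SD of this difference was 16.4 among the 14634 regions. Each had an exact 2-sided permutation p of 0.333. By fold enrichment the groups overlapped at the region below Olig1, with 6.48 and 8.11 in the AAV-Cre libraries, against 6.96 and 6.24 in the AAV-GFP libraries. At Usf2 they also parted by fold, with 6.20 and 7.11 in the AAV-Cre libraries, against 5.37 and 5.73 in the AAV-GFP libraries. The 1 in the other direction was the Zfp236 region beyond Mbp, at 2.28 and 2.55 in the AAV-Cre libraries, against 6.70 and 23.0 in the AAV-GFP libraries, a difference of -12.4. The most negative difference was -18.1, at the end of Imp3, where the percentiles were 4.86 and 45.7 in the AAV-Cre libraries, against 41.1 and 45.8 in the AAV-GFP libraries, and the groups overlapped. The median difference over the 10 regions was 6.98 points, against 0.0214 over all shared regions. It was -0.55 without AAV-Cre replicate 1 and -9.00 when ranks were taken over whole lists of unequal length, so its direction rested on these choices.

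**Figure D3:**
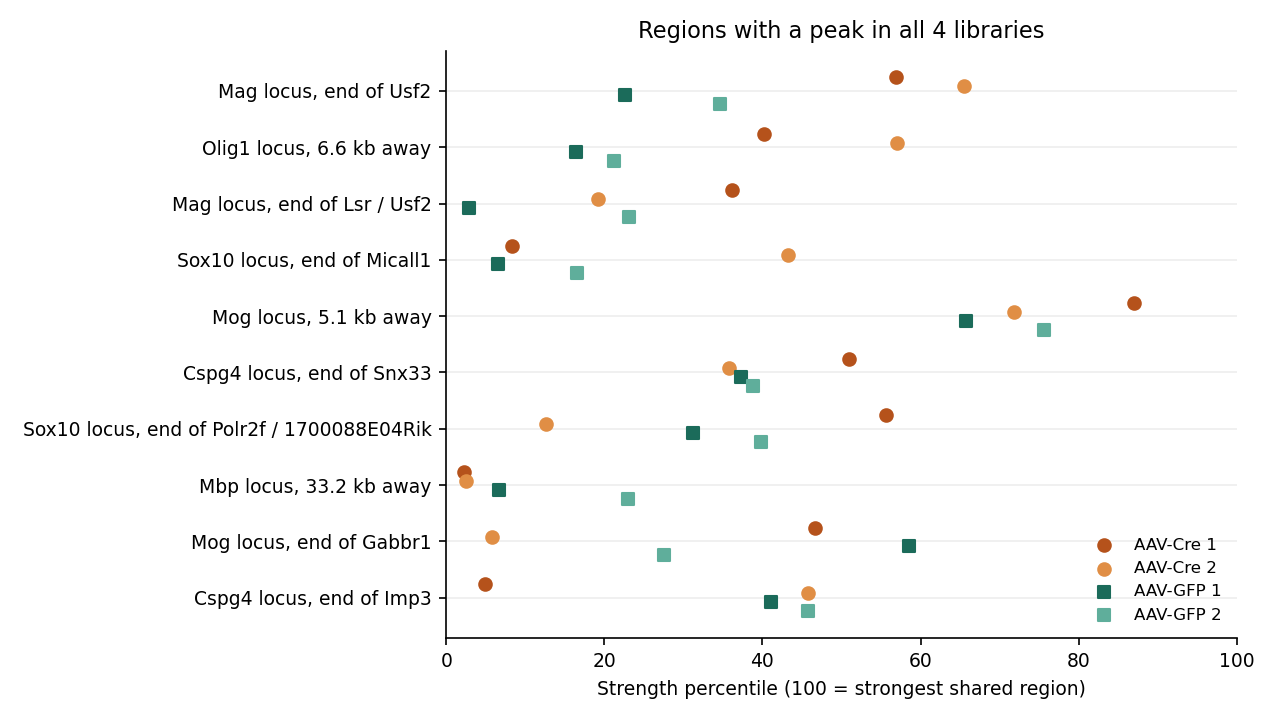
Strength percentile of the 10 regions with a peak in all 4 libraries (100 the strongest of the shared regions), with circles for the AAV-Cre libraries and squares for the AAV-GFP libraries. By this percentile the groups part fully at the Usf2 region and at the region below Olig1, where the AAV-Cre values are higher, and at the region beyond Mbp, where they are lower. By fold enrichment, not drawn here, the groups overlap at the region below Olig1. Both AAV-Cre folds are below both AAV-GFP folds at the ends of Imp3 and Snx33, upstream of Mog and beyond Mbp.

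Other genes of the lineage were read from lists of 51 genes, all of which matched the reference. Promoters were open in all 4 libraries at 11 (21.6%), against 42.9% of all protein-coding genes. They were open in the AAV-GFP libraries alone at 1 of 51, against 3.05%, and in the AAV-Cre libraries alone at 0, against 0.064%. At 18 of 51 there was no peak, near the 40.9% of all protein-coding genes. Among 24 myelin and mature oligodendrocyte genes, the 4 open in all libraries were Car2, Gpr37, Fa2h and Qk. Fa2h, the fatty acid hydroxylase of myelin lipids, had AAV-Cre folds of 6.66 and 9.23, against 9.15 and 7.30 in the AAV-GFP libraries. The promoter of Myrf, the master regulator of myelination, was open in 3 libraries, with a fold of 6.44 in AAV-Cre replicate 1 and no peak in AAV-Cre replicate 2, against 7.36 and 8.07 in the AAV-GFP libraries. The promoters of Mobp, Opalin, Ermn and Aspa had no peak in any library.

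Erbb3, a neuregulin receptor of the lineage, was the 1 promoter of these 51 open in the AAV-GFP libraries alone. The call rests on the edge of the window. The merged region there, at chr10:128565776-128566637, also held AAV-Cre peaks, whose fold was 11.2 and 14.9, against 13.1 and 14.0 in the AAV-GFP libraries.

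Of 8 committed precursor genes, Itpr2 and Sirt2 were open in all 4 libraries. Of 19 precursor and regulator genes, Tnr, Lhfpl3, Ptprz1, Luzp2 and Id2 were. Ptprz1, a receptor phosphatase of precursors and astrocytes, had AAV-Cre folds of 5.53 and 5.56, against AAV-GFP folds of 8.65 and 5.31. Within 50 kb of the 51 genes, 38 of 413 regions (9.20%) were open in the AAV-GFP libraries alone, against 11.5% of all regions, and 7 (1.69%) in the AAV-Cre libraries alone, against 1.18%. Both shares are near those of the series.

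Markers of other cells were read the same way. Promoters of 7 of 13 neuron genes (53.8%) were open in all 4 libraries, against 2 of 12 astrocyte genes (16.7%), 1 of 10 microglia genes and 0 of 9 vessel genes. The share of all protein-coding genes was 42.9%. Slc17a6 and Syp, 2 of the 13 neuron genes, had a promoter open in the AAV-GFP libraries alone, against 3.05% of all promoters. Regions open in the AAV-GFP libraries alone made up 17.3% of 168 at neuron genes and 10.3% of 87 at astrocyte genes. This stands beside 15.4% at the 9 lineage genes and 11.5% of all regions. Regions open in the AAV-Cre libraries alone numbered 0 at the neuron and at the astrocyte genes, against 1.18% of all regions. Whether these lists differ from one another was not tested.

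**Figure D4:**
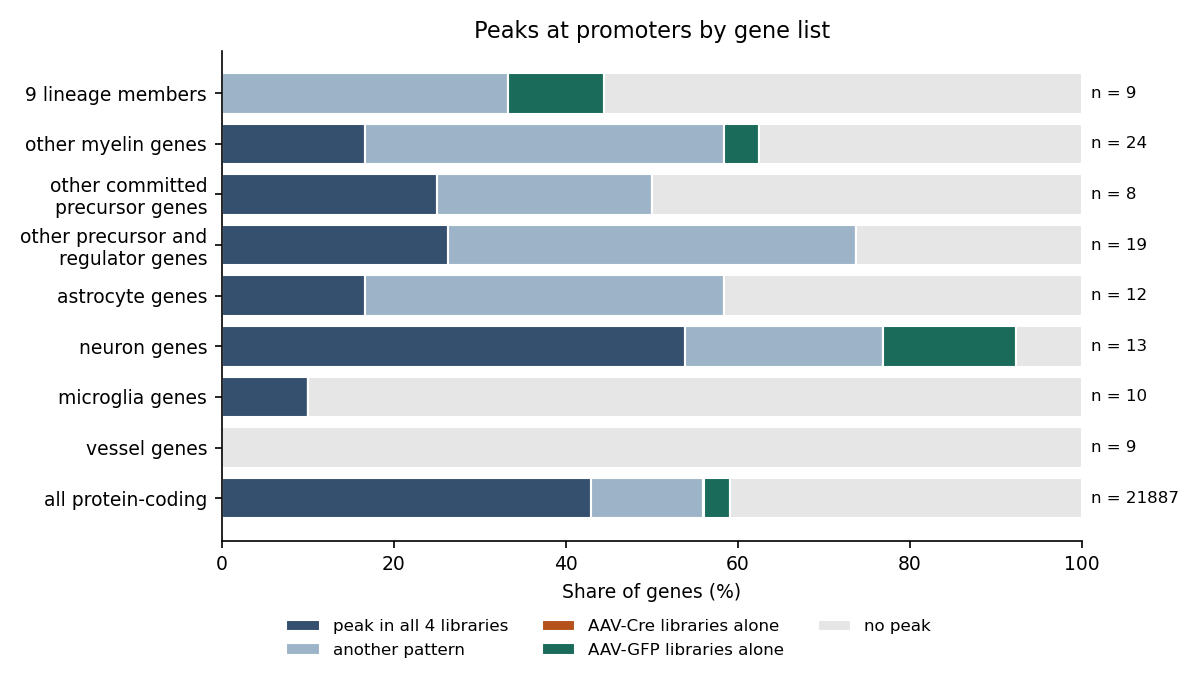
Share of genes (%) whose promoter had a peak in all 4 libraries, in the AAV-Cre libraries alone, in the AAV-GFP libraries alone, in another combination or in none, by gene list, with the number of genes at the right. No member of the 9 lineage genes reaches the first class, which holds 42.9% of all protein-coding genes.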

How the data were processed

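ATAC-seq peak lists of 4 PVH libraries (2 AAV-Cre, 2 AAV-GFP) and 2 group lists were used as deposited. The submitters' processing notes name Bowtie2, MACS2, FastQC and Trim Galore with the build mm10. For their versions, read filters, thresholds and any shift for the transposase, the sources used here give nothing, and peak names carry the tag "sub", whose meaning is not stated. The authors' fold enrichment is a ratio per peak, and their −log10 p and −log10 q are per peak. The authors' score was not used, since it follows −log10 q (10 times its value, cut to a whole number, in 57665 of 57682 peaks of the longest list). Starts were made 1-based. The group lists' peak names mark them as called on a pool.

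Regions, promoters and percentiles were computed with Python 3.11.15, pandas 2.3.3 and numpy 2.4.6, and the functions were tested on simulated data. Genes and promoters came from RefSeq GRCm38.p6, where 6 of the 9 genes had a start site. All 9 genes, their promoter regions, the strongest other shared region, each group-specific region and the extreme percentile differences were described by rule; other regions and genes named in the text were chosen after their values were seen. Gene lists and members were chosen with earlier results of these data known.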

Additional observations from a re-analysis of the deposited data

How the results depend on the processing

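Against 10 AAV-GFP-only regions at the 9 loci, lists of equal length gave 4, the authors' group lists 18 and a window of 10 kb in place of 50 kb gave 6. The 18 were the 10 and the regions with both AAV-GFP peaks and 1 AAV-Cre peak, 4 for each AAV-Cre library. A region with a peak in only 1 library of a group was absent from that group's list. At a −log10 q of at least 5 the AAV-GFP-only count was also 10, of which 5 were among the first 10. Against 10 regions open in all 4 libraries, the counts were 4 at a −log10 q of at least 5, 2 within 10 kb and 25 within 100 kb. The median percentile difference of 6.98 was 17.4 at the stricter q, 19.3 within 10 kb and -9.00 with ranks over whole lists. Leaving out 1 library at a time gave 10 to 14 shared regions, 14 to 30 AAV-GFP-only, 0 to 2 AAV-Cre-only, 0 to 2 genes with a promoter peak in all libraries and a median difference of -0.55 to 8.89. Fewer libraries must have or lack a peak in these settings. For the other settings, apart from the group lists, the cause was not tested. Joining peaks only where 50% of the shorter overlapped, ranking by fold and a promoter window of 2500 bp left all counts within 1.5 times and the median within 2.87 points, the mean SD of library medians within a group. With the replicate block the values were 10, 10, 0, 0 and 6.98, the same by construction, and the deviations of same-numbered libraries had a correlation of -0.0166 over 14634 shared regions, and the replicate numbers were not treated as a pairing. Depth is unknown, and 2 libraries a group limit every comparison.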
